A study of Mus musculus with 8 samples.

Results

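The genes of the mouse major histocompatibility complex (MHC, called H2 in the mouse) and of the antigen presentation pathway were examined in RNA-seq of mouse myocardium. The members were chosen by name: every gene whose symbol starts with H2-, together with B2m, Cd74, Ciita, Nlrc5, Tap1, Tap2, Tapbp, Psmb8, Psmb9, Psmb10 and Erap1. This gave 45 of the 33249 genes in the table, 34 of them named H2- and 39 of them on chromosome 17. The family came to notice through low values of H2-Q4 and H2-Q6 in infarcted hearts of Piezo1-deleted mice and of H2-Q6 in their sham-operated hearts, so those differences are given here as a description. A gene entered the tests when its mean level over the libraries was at least 0.5 FPKM (fragments scaled to transcript length and to library size), which 14028 genes and 30 of the 45 members did.

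The study asked how deletion of the mechanically gated cation channel Piezo1 in cardiomyocytes alters the heart after myocardial infarction (MI). The 8 libraries fall into 4 groups of 2. Control mice (fl/fl) were littermates that carried the floxed Piezo1 allele without the Cre transgene, and CKO mice carried the floxed allele with a tamoxifen-inducible Myh6-MerCreMer transgene, in which a cardiomyocyte promoter drives the recombinase, so other cells of the heart should keep Piezo1. Young adult mice of both genotypes had the left anterior descending artery permanently tied off (fl/fl-MI and CKO-MI), with tissue taken at day 42, or a sham operation (fl/fl-Sham and CKO-Sham). Whether controls received tamoxifen was not given in the sources used here. Nothing in the labels says that the libraries of a group came from separate animals, so the p-values measure only the spread between these samples, which may be technical.

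Total counts ran from 73821747 to 88117573 per library. The members took 0.129% to 0.167% of all counts in the sham libraries, and 0.518%, 0.247%, 0.150% and 0.195% in fl/fl-MI 1, fl/fl-MI 2, CKO-MI 1 and CKO-MI 2. Levels are given as CPM, counts scaled to library size after TMM normalization, with replicate 1 before replicate 2, the sham groups before the MI groups and fl/fl before CKO in each. The check of the targeted gene did not follow the labels. Piezo1 stood at 71.9 and 81.6 CPM in fl/fl-Sham, 76.3 and 87.9 in CKO-Sham, 53.3 and 64.5 in fl/fl-MI, and 56.0 and 64.3 in CKO-MI, with no lower level in the CKO libraries of either operation, although the count of the whole gene also takes reads from outside the floxed exons and from cells other than cardiomyocytes. Esr1, part of which is contained in the Cre fusion, was at 704 and 401 CPM in CKO-MI but also at 330 in the library labelled fl/fl-MI 2, against 5.49 to 8.32 in the other 5 libraries, both labelled CKO-Sham included. The library labelled fl/fl-MI 2 also stood apart in atrial markers, whose summed level was 19764 CPM against 2535 to 4430 in the other MI libraries. The 8 cardiomyocyte markers, all above the filter, summed to 32227 to 36016 CPM in sham and 23430 to 40711 in MI libraries. All libraries are named here by their labels, and every difference between genotypes rests on labels that these genes did not bear out. The class medians between the MI groups and the class II calls in fl/fl mice are therefore given also without each fl/fl-MI library. Most estimates of single genes are given with all libraries only.

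Class I molecules consist of a heavy chain bound to beta-2-microglobulin (B2m) and show peptides from the inside of nearly every nucleated cell to CD8 T cells, while many of the class I-like (nonclassical) molecules of the Q, T and M regions have narrower roles, among them the engagement of NK cell receptors. The peptides are cut by the immunoproteasome (Psmb8, Psmb9, Psmb10), carried into the endoplasmic reticulum by TAP (Tap1, Tap2), trimmed by Erap1 and loaded with the help of tapasin (Tapbp), and the gene set is under the transactivator Nlrc5. Class II molecules, with their invariant chain Cd74 and the peptide editor H2-DM, show extracellular peptides to CD4 T cells, are made mainly by dendritic cells, macrophages and B cells, and depend on the transactivator Ciita.

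The promoters of these genes carry short elements that the field has long used to describe their shared control, and are shown here because genes with alike promoters are set side by side in the results. The sequences are from RefSeq on GRCm38.p6, each read 5′ to 3′ on the strand of its gene and cut from the 250 bases before the start; 31 of the 45 members had such a window. Capitals mark matches, on either strand, to GGGGATTCCCC (the NF-kappaB sequence as H2-K1 holds it), TTTCACTT (an interferon-stimulated element) and GAAANNGAAA (an interferon regulatory factor repeat), to TGACG, the core of a cyclic AMP response element, and to ATTGG, the box of the factor NF-Y. The stretches shown lie at chr17:34000349-34000468 (minus strand) for H2-K1, chr17:35262913-35263055 (plus strand) for H2-D1, chr17:35379454-35379576 (plus strand) for H2-Q4, chr17:35424667-35424809 (plus strand) for H2-Q6 and chr17:35439032-35439153 (plus strand) for H2-Q7, all upstream of their RefSeq starts. The deposited position of H2-D1 starts earlier, at 35262730, so its stretch lies inside the gene as positioned there.
H2-K1: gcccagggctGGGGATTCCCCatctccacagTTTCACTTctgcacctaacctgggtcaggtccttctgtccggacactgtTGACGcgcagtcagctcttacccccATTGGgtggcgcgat
H2-D1: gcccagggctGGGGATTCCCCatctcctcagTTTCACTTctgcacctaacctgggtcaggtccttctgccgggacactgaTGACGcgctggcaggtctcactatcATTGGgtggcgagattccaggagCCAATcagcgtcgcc
H2-Q4: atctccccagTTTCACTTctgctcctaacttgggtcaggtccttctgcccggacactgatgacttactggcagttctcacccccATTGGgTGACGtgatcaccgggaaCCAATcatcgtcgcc
H2-Q6: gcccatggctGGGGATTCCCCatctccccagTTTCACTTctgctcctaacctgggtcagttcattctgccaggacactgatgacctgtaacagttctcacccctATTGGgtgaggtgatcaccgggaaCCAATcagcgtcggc
H2-Q7: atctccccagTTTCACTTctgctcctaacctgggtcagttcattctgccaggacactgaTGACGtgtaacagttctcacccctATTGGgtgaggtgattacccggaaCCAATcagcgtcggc
The stretches of H2-K1 and H2-D1 differed at 12 of the 120 bases compared and those of H2-Q6 and H2-Q7 at 3 of 122. The NF-kappaB sequence was held by 10 of 32851 promoter windows of the genome (0.0304%), and 4 of those 10 belonged to H2-K1, H2-D1 and H2-Q6. TTTCACTT was held by 9 member genes, both classical class I genes and 7 of 13 class I-like genes, against 1.36% of all windows, and by 0 of 8 class II genes. These genes arose by duplication and their windows are not independent. A match describes letters only.

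For B2m and the class II chains, the stretches shown lie at chr2:122147538-122147648 (plus strand) for B2m, chr17:34287857-34287907 (minus strand) for the class II alpha chain H2-Aa and chr17:34305798-34305846 (plus strand) for the class II beta chain H2-Eb1.
B2m: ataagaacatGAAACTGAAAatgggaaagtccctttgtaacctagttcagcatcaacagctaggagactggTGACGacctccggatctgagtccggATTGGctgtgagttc
H2-Aa: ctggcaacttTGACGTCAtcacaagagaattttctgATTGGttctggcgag
H2-Eb1: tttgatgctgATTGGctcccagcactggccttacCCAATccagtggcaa
B2m held the repeat GAAANNGAAA, as did H2-T22 and H2-T23 (2.98% of all windows), and in H2-T22 it overlapped TTTCACTT. TGACG was in 11 of the 31 members with a window (17.8% of all windows), and in H2-Aa it lay on both strands of the same palindrome. ATTGG was in 25 of the 31 members and 8 of 8 class II genes, against 33.8% of all windows.

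In sham-operated hearts, the genes of the class I pathway were the most abundant members per length. B2m had a mean of 279 FPKM over the 4 sham libraries, H2-D1 124, H2-K1 74.1, Cd74 33.8 and H2-Q4 24.2, while the class II chains H2-Eb1, H2-Ab1 and H2-Aa stood at 12.0, 8.30 and 6.75. The 15 members below the filter were 10 class I-like genes (H2-Bl, H2-M2, H2-M5, H2-M6-ps, H2-M9, H2-Pb, H2-Q2, H2-Q10, H2-T-ps and H2-T3, with the class II pseudogene H2-Pb placed there by its name), the class II genes H2-Ea, H2-Eb2, H2-Oa and H2-Ob, and Ciita. H2-Ea, the alpha chain that pairs with H2-Eb1, had no count in 7 libraries and 0.08 CPM in CKO-Sham 2. H2-Ob, which with H2-Oa forms the inhibitor of H2-DM, lay between 0.81 and 3.58 CPM. Outside Ciita no member below the filter passed 0.851 FPKM in any library.

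Each infarcted group was then compared with its sham group, and the infarct effect was averaged over both genotypes by edgeR's quasi-likelihood test with Benjamini-Hochberg adjustment over all 14028 genes. At day 42 class II genes were higher, part of the peptide-generating machinery of class I was lower, and the classical class I heavy chains did not pass. Of the 30 members tested 6 rose, each of them class II, and 7 fell; over all genes tested 40.4% passed, 22.0% higher and 18.3% lower, so the number of members called was near the background and only its division between classes was uneven. The median log2 fold change was 1.38 for the 7 class II genes, 0.24 for the 2 classical class I genes, -0.01 for the 11 class I-like genes and -0.56 for the 8 machinery genes, against 0.03 for all genes tested. In 5 of the 30 every MI library lay above every sham library and in 5 every MI library lay below, beside 20.9% and 19.5% of all genes.

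**Figure D1:**
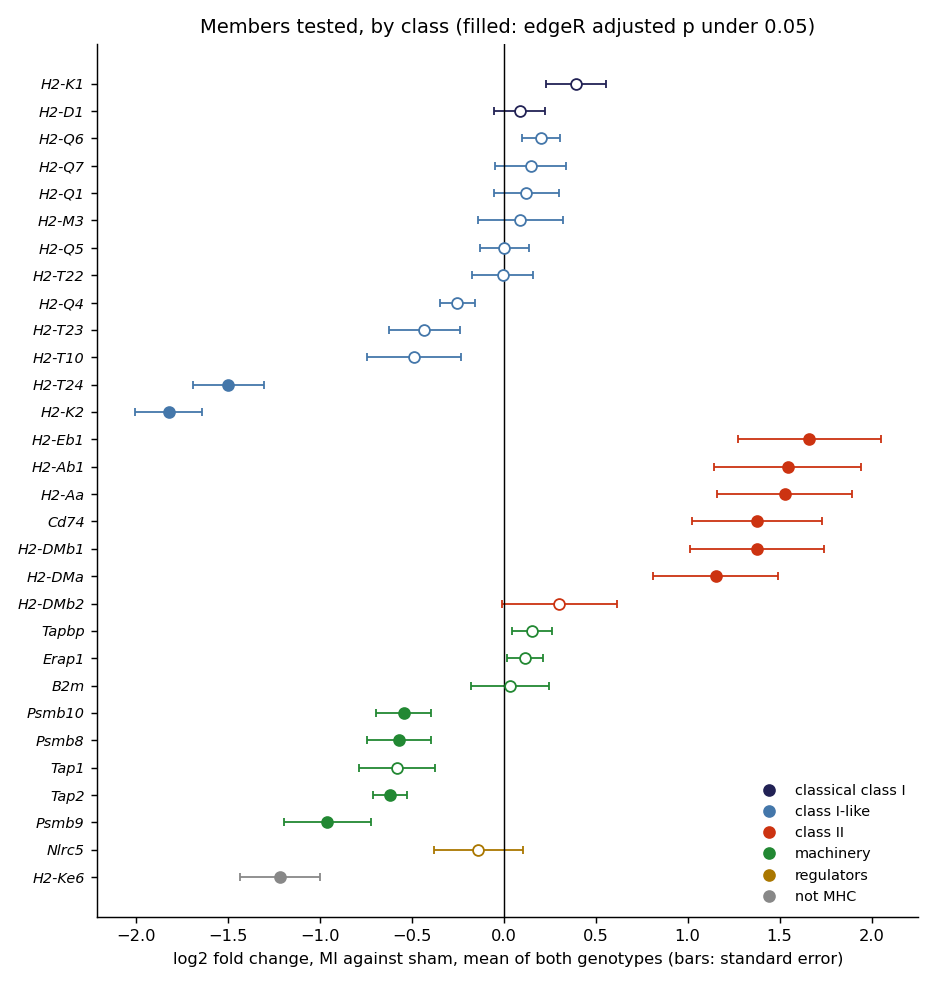
Log2 fold change of MI against sham, averaged over both genotypes, for the 30 members tested, grouped by class; points are edgeR estimates, bars are standard errors and filled points have an adjusted p under 0.05. Class II genes lie to the right with H2-Eb1 at 1.66, and the filled points on the left are H2-K2, H2-T24, Psmb8, Psmb9, Psmb10, Tap2 and H2-Ke6.

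Class II chains rose after MI, by far the most in 1 library. H2-Eb1 was at 23.5 and 39.0 CPM in fl/fl-Sham, 28.1 and 26.3 in CKO-Sham, 266 and 71.8 in fl/fl-MI, and 50.0 and 50.7 in CKO-MI. H2-Ab1, the other major beta chain, was at 21.6 and 35.2, 30.7 and 18.8, 216 and 60.7, and 42.9 and 43.4 CPM in the same order. H2-Aa, the alpha chain that pairs with H2-Ab1, was at 28.0 and 39.2, 33.7 and 27.1, 246 and 71.0, and 49.8 and 57.2 CPM. In each of these genes the 4 MI libraries lay above the 4 sham libraries, and fl/fl-MI 1 lay at over 3 times any other library. The infarct effect averaged over genotypes was 1.66 on the log2 scale for H2-Eb1 (SE 0.39, edgeR adjusted p = 0.0148), 1.54 for H2-Ab1 (SE 0.40, adjusted p = 0.0213) and 1.53 for H2-Aa (SE 0.37, adjusted p = 0.0159).

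The invariant chain and the peptide editor moved the same way. Cd74, which occupies the class II groove until peptide loading, was at 51.8 and 90.7 CPM in fl/fl-Sham, 77.1 and 63.3 in CKO-Sham, 473 and 155 in fl/fl-MI, and 106 and 109 in CKO-MI, without overlap between MI and sham (1.38, SE 0.35, edgeR adjusted p = 0.0207). H2-DMa was at 2.51 and 3.99, 2.71 and 3.65, 15.5 and 5.80, and 4.32 and 5.24 CPM, again without overlap (1.15, SE 0.34, adjusted p = 0.0333). H2-DMb1 was at 3.80 and 3.78, 4.05 and 2.67, 21.7 and 8.23, and 3.94 and 7.52 CPM. CKO-MI 1 lay within the sham range for this gene, and the averaged effect was 1.38 (SE 0.36, adjusted p = 0.0225). H2-DMb2, its neighbour and paralogue at 0.61 to 2.58 CPM, did not pass (0.30, SE 0.31, adjusted p = 0.472). In exact two-sided permutation tests of the 4 MI against the 4 sham libraries, Cd74, H2-Aa, H2-Ab1, H2-DMa and H2-Eb1 gave 0.0286, the smallest p that this design allows, and H2-DMb1 gave 0.0571. The value of 0.0286 follows from the lack of overlap already given, which 20.9% of all genes showed upward and 19.5% downward.

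**Figure D2:**
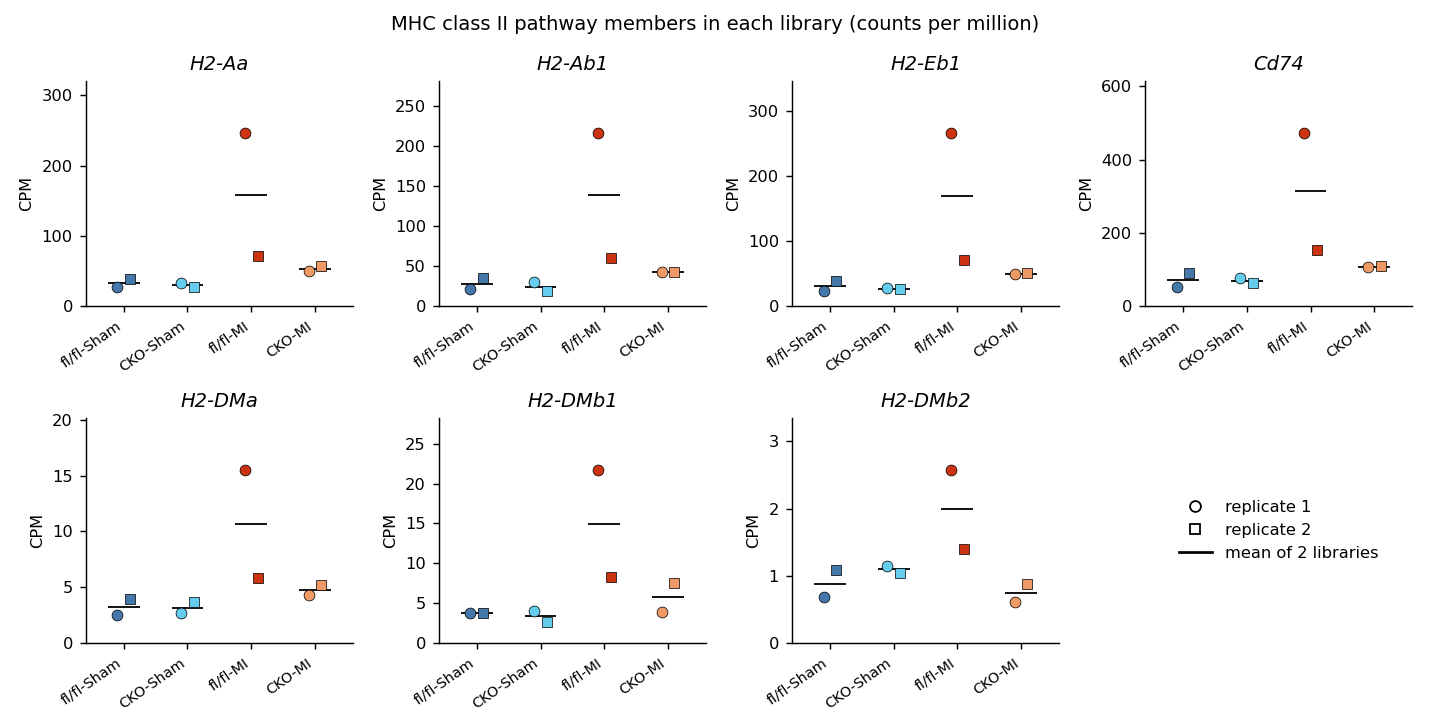
CPM of class II genes in each library, in 4 groups of 2 libraries; each point is a library. In every panel the highest point is fl/fl-MI 1, and for H2-Aa, H2-Ab1, H2-Eb1, Cd74 and H2-DMa the other 3 MI libraries also lie above the 4 sham libraries.

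With fl/fl-MI 1 left out, 6 of the 7 class II genes were still called higher, and their median log2 fold change fell from 1.38 to 0.92. H2-Eb1 then stood at 1.03 and H2-Aa at 0.93. Leaving out fl/fl-Sham 1, CKO-Sham 1 or CKO-Sham 2 ended every class II call, with smallest adjusted p of 0.0623, 0.0517 and 0.0584, while the class median stayed at 1.38, 1.54 and 1.31. Without fl/fl-Sham 2 or CKO-MI 1 there were 3 class II calls, and without CKO-MI 2 there were 2.

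The 2 genotypes gave different calls for class II, although the comparisons of each with its own sham group do not test that difference. In fl/fl mice 8 of 30 members passed, 6 higher and 2 lower (18.5% of all genes, 10.1% higher and 8.45% lower), and the 6 were H2-Eb1 (2.43, SE 0.57), H2-Ab1 (2.28, SE 0.58), H2-Aa (2.24, SE 0.53), Cd74 (2.14, SE 0.51), H2-DMb1 (1.98, SE 0.52) and the heavy chain H2-K1. In CKO mice 9 members passed and all 9 were lower (24.7% of all genes, 12.8% higher and 11.9% lower). For the class II genes other than H2-DMb2 the CKO differences were 0.59 to 0.89 with SE of 0.48 to 0.56, while H2-DMb2 was at -0.57. In CKO mice 0 of 7 class II genes passed in edgeR either way, with 0 at an unadjusted p under 0.05. Without fl/fl-MI 1, 4 of the 7 class II genes were called in fl/fl mice, with a median of 1.07 in place of 2.14, and without fl/fl-MI 2 all 7. Without any one of the other 6 libraries, with a replicate block, or with only the 4 libraries compared in the fit, 0 of 7 were called in fl/fl mice. In CKO mice 2 of the 7, H2-Aa and H2-Eb1, were called higher without fl/fl-MI 1 or without fl/fl-MI 2, and 4 with only the 4 libraries compared in the fit.

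Cell type markers moved with class II in part, and in bulk tissue fewer cells of a type and less RNA per cell cannot be told apart. The summed level of 9 macrophage markers, all of them above the filter, was 280 to 345 CPM in sham libraries and 570, 441, 237 and 442 CPM in fl/fl-MI 1, fl/fl-MI 2, CKO-MI 1 and CKO-MI 2. Of the 9 genes, 2 rose and 1 fell after MI, while over all genes tested 22.0% rose and 18.3% fell. Adgre1, which encodes F4/80, rose by 1.14 (SE 0.19, edgeR adjusted p = 0.00442) and Csf1r by 0.60 (SE 0.17, adjusted p = 0.0277). Mertk fell by 1.09 (SE 0.16, adjusted p = 0.00279). Dendritic cell markers summed to 52.2 to 59.8 CPM in sham libraries and 16.0 to 38.4 in MI libraries, with 1 of the 5 tested genes higher and 2 lower, and Batf3 below 1 CPM throughout. The sum of 6 B cell markers was 14.5 to 24.2 CPM in sham libraries and 22.3, 67.5, 33.8 and 29.0 in the MI libraries, most of it Ighm, while Cd79a and Pax5 stayed below 1 CPM in every library, and 7 T and NK cell markers summed to 5.44 to 9.53 in sham and 3.28 to 12.1 in MI libraries. Of the dendritic cell genes, Cd209a rose from 0 to 0.19 CPM in sham libraries to 3.65, 0.62, 1.01 and 1.77 in the MI libraries (4.25, SE 0.91, edgeR adjusted p = 0.0108), while Clec9a fell by 1.65 (SE 0.33, adjusted p = 0.00864) and Zbtb46 by 1.41 (SE 0.16, adjusted p = 0.00131). The 6 fibroblast markers summed to 1135 to 1245 CPM in sham libraries and 3793, 1674, 2054 and 2999 in the MI libraries, with 5 of 6 higher. fl/fl-MI 1 was thus highest in this sum, and it was the lowest library in the sums of cardiomyocyte (23430 CPM) and endothelial markers (475 CPM). CKO-MI 2, where class II was not as high, was next in each, at 2999, 25856 and 634 CPM. The part of these cell types in the class II values was not tested.

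The classical class I heavy chains are H2-K1 and H2-D1, which present peptides to CD8 T cells. H2-K1 (chromosome 17, 33996017 to 34000347, GRCm38) was at 271 and 299 CPM in fl/fl-Sham, 272 and 247 in CKO-Sham, 672 and 444 in fl/fl-MI, and 206 and 251 in CKO-MI. H2-D1 (35262730 to 35267499) was at 406 and 443, 396 and 355, 679 and 518, and 273 and 328 CPM. For both genes the fl/fl-MI libraries were the highest pair, and CKO-MI 1 was the lowest library. Averaged over genotypes, the infarct effect was 0.39 for H2-K1 (SE 0.16, edgeR adjusted p = 0.0909) and 0.09 for H2-D1 (SE 0.14, adjusted p = 0.643). In fl/fl mice H2-K1 rose by 0.97 (SE 0.23, adjusted p = 0.0311), a call that was lost without any one of the 4 sham libraries and with a replicate block, and H2-D1 was at 0.50 (SE 0.19, adjusted p = 0.115).

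The ratio of H2-K1 to H2-D1, taken on FPKM, was 0.586 to 0.610 in the 4 sham libraries and 0.869, 0.752, 0.662 and 0.672 in fl/fl-MI 1, fl/fl-MI 2, CKO-MI 1 and CKO-MI 2. The ratio was higher in each of the 4 MI libraries than in any sham library of either genotype. The mean log2 difference was 0.30, with an exact two-sided permutation p of 0.0286 and 0.229 after adjustment over the 8 ratios computed. Ratios among class II genes varied less with MI: H2-Aa to H2-Ab1 was 0.743 to 0.973 in sham and 0.771 to 0.891 in MI libraries, and Cd74 to H2-Ab1 was 3.67 to 5.15 and 3.35 to 3.90. Of the windows of 100 bases in the transcripts of H2-D1, 3.59% also occurred in another gene, and of those of H2-K1 0.957%. How many reads were shared with other genes, and how they were assigned, is not known.

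**Figure D3:**
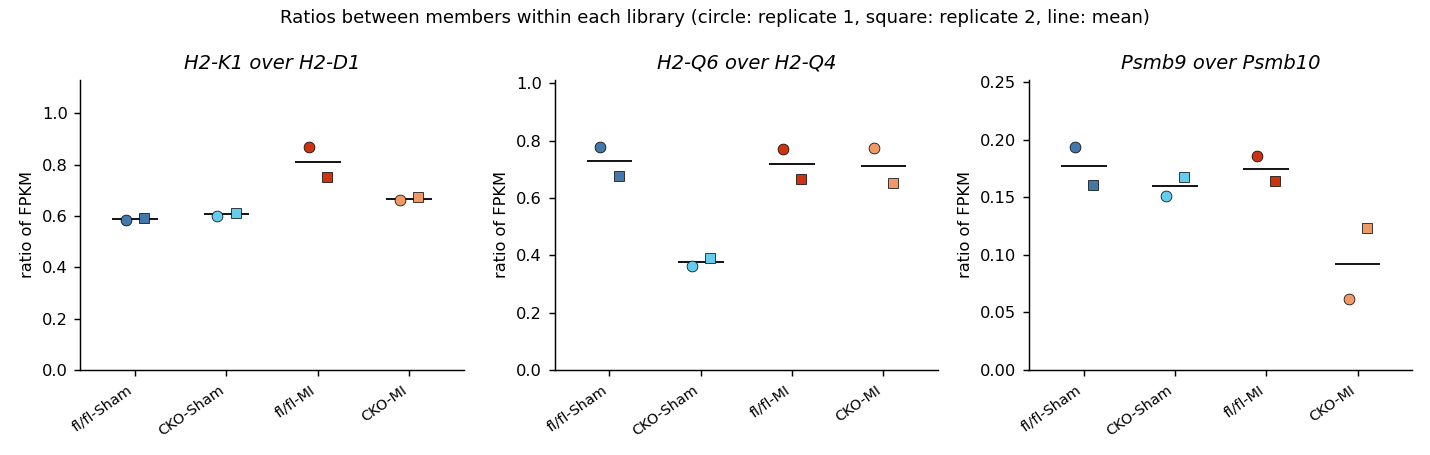
Ratios of FPKM within each library for H2-K1 over H2-D1, H2-Q6 over H2-Q4 and Psmb9 over Psmb10, by group; a circle is replicate 1, a square is replicate 2 and the line is the group mean. H2-K1 over H2-D1 separates MI from sham libraries, H2-Q6 over H2-Q4 is low only in CKO-Sham, and Psmb9 over Psmb10 is lowest in CKO-MI 1.

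Among the 11 class I-like genes tested, 2 fell after MI and 0 rose, beside 18.3% and 22.0% of all genes, so the number that fell was near the background. H2-K2, annotated as a transcribed pseudogene beside H2-K1, was at 11.3 and 13.4 CPM in fl/fl-Sham, 13.3 and 11.5 in CKO-Sham, 4.31 and 4.31 in fl/fl-MI, and 2.23 and 3.46 in CKO-MI. H2-T24 was at 17.4 and 17.7, 18.2 and 18.6, 8.76 and 4.96, and 5.48 and 6.35 CPM. The 4 MI libraries lay below the 4 sham libraries for both genes, and each was called in either genotype alone, although both calls in fl/fl mice were lost without fl/fl-Sham 1 or fl/fl-Sham 2 both in CKO mice without CKO-Sham 1, and that of H2-T24 in CKO mice also without CKO-Sham 2 or CKO-MI 1. The averaged difference was -1.82 for H2-K2 (SE 0.18, edgeR adjusted p = 0.000921) and -1.50 for H2-T24 (SE 0.19, adjusted p = 0.00183), each with an exact permutation p of 0.0286. That permutation p follows from the lack of overlap, which 19.5% of all genes showed downward. Both averaged calls held without any single library. H2-T24 shared none of its 100-base windows with another gene, whereas H2-K2 shared 1.60% of them.

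The other T and M region genes did not pass. H2-T23, which encodes Qa-1, the ligand of the CD94/NKG2A receptor, was at 64.6 and 70.8 CPM in fl/fl-Sham, 70.8 and 64.3 in CKO-Sham, 85.7 and 48.5 in fl/fl-MI, and 32.3 and 42.7 in CKO-MI (-0.43, SE 0.19, edgeR adjusted p = 0.115). H2-T22, a ligand of gamma delta T cell receptors, was at 39.9 to 45.0 CPM in the sham libraries, 67.6 and 47.7 in fl/fl-MI, and 23.7 and 35.4 in CKO-MI (-0.01, SE 0.17). For both genes fl/fl-MI 1 lay above the sham range and both CKO-MI libraries lay below it, so the averaged difference combines values on both sides of the sham level. H2-T10, at 2.15 to 4.94 CPM, H2-M3, which presents formylated peptides, at 3.75 to 9.75, and H2-Q1, at 3.43 to 8.39, showed averaged differences of -0.49 (SE 0.25), 0.09 (SE 0.23) and 0.12 (SE 0.18).

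H2-Q5, H2-Q6 and H2-Q7 of the Q region were at lower levels in CKO than in fl/fl libraries also without infarction, although 0 of the 30 members passed between the sham groups in edgeR. H2-Q6 (chromosome 17, 35424850 to 35430055, GRCm38) was at 50.0 and 48.0 CPM in fl/fl-Sham, 22.0 and 22.1 in CKO-Sham, 64.7 and 51.5 in fl/fl-MI, and 25.7 and 23.5 in CKO-MI. H2-Q7 (35439155 to 35443773), which encodes a Qa-2 molecule as H2-Q6 does, was at 44.4 and 43.2, 20.9 and 22.0, 63.1 and 36.3, and 19.2 and 27.2 CPM. H2-Q5 (35394126 to 35397588), annotated as a polymorphic pseudogene, was at 8.98 and 10.5, 5.50 and 4.99, 10.2 and 10.5, and 4.94 and 5.03 CPM. For these 3 neighbouring genes every CKO library lay below every fl/fl library, whichever the operation. The same held for H2-D1, H2-Q1, H2-Q4 and H2-T22, which made 7 of the 30 members, beside 0.456% of all genes. H2-Q4 and H2-Q6, through whose low CKO values the family was noticed, are among these 7, so the count is a description. Between the sham groups alone 9 of the 30 members were lower without overlap, beside 23.8% of all genes. The sham difference was -1.15 for H2-Q6 (SE 0.15), -1.03 for H2-Q7 (SE 0.28) and -0.89 for H2-Q5 (SE 0.19), and the MI difference was -1.24 (SE 0.15), -1.10 (SE 0.28) and -1.05 (SE 0.19). With a single library left out, the MI difference ran from -1.39 to -1.05 for H2-Q6, -1.44 to -0.63 for H2-Q7 and -1.06 to -1.03 for H2-Q5.

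H2-Q4 (35379617 to 35385290), upstream of them on the same strand, also had every CKO library below every fl/fl library, but its sham difference was small. It was at 79.9 and 88.3 CPM in fl/fl-Sham, 75.7 and 70.2 in CKO-Sham, 104 and 96.3 in fl/fl-MI, and 41.5 and 44.8 in CKO-MI. The sham difference was -0.20 (SE 0.13) and the MI difference -1.22 (SE 0.13), and in CKO mice it fell after MI by 0.76 (SE 0.13, edgeR adjusted p = 0.0109), a call lost without CKO-Sham 1, CKO-Sham 2 or CKO-MI 1. The ratio of H2-Q6 to H2-Q4 on FPKM was 0.779 and 0.677 in fl/fl-Sham, 0.362 and 0.392 in CKO-Sham, 0.772 and 0.666 in fl/fl-MI, and 0.773 and 0.653 in CKO-MI. The low pair in this ratio was CKO-Sham alone. The infarct effects of H2-Q5, H2-Q6 and H2-Q7, averaged over genotypes, were 0.00, 0.20 and 0.15 with SE of 0.13, 0.10 and 0.19, and -0.25 for H2-Q4 (SE 0.09, adjusted p = 0.0700).

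**Figure D4:**
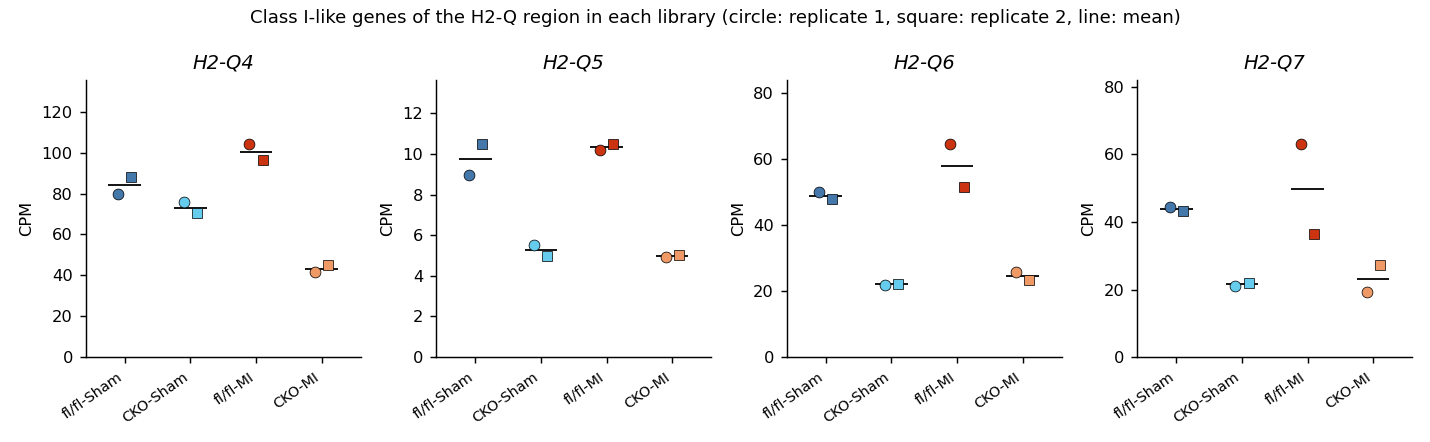
CPM of H2-Q4, H2-Q5, H2-Q6 and H2-Q7 in each library, by group; each point is a library. The CKO points of H2-Q5, H2-Q6 and H2-Q7 lie below the fl/fl points in sham and in MI, while those of H2-Q4 separate clearly only in MI, at 41.5 and 44.8 against 104 and 96.3.

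Over all members, 0 of 30 passed the adjusted threshold between the sham groups in edgeR (0.00713% of all genes), 3 had an unadjusted p under 0.05 and were lower (H2-Q5, H2-Q6 and H2-Q7, beside 2.0% of all genes), DESeq2 called 2 of them lower (H2-Q5 and H2-Q6, beside 0.0998%) and limma on log2(FPKM + 1) called 0. H2-Q6, already known to be low in this contrast, had an edgeR adjusted p of 0.434. At an unadjusted p under 0.05 with a change of at least 2-fold there were 2 members, both lower, against 0.364% of all genes. Windows of 100 bases shared with other genes made up 14.0% of H2-Q5, 10.8% of H2-Q6 and 12.0% of H2-Q7, in part with each other, against 2.16% of H2-Q4, so the split of reads among H2-Q5, H2-Q6 and H2-Q7 is uncertain.

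The machinery that makes and carries class I peptides fell after MI in 4 of 8 genes, beside 18.3% of all genes. Psmb9 was at 12.6 and 10.8 CPM in fl/fl-Sham, 12.0 and 12.1 in CKO-Sham, 11.8 and 6.86 in fl/fl-MI, and 2.96 and 4.98 in CKO-MI (-0.96, SE 0.24, edgeR adjusted p = 0.0183). Psmb8 was at 19.5 and 21.2, 24.2 and 22.0, 24.0 and 15.0, and 9.58 and 12.3 CPM (-0.57, SE 0.17, adjusted p = 0.0367). Psmb10 was at 30.1 and 31.1, 36.9 and 33.4, 29.7 and 19.5, and 22.4 and 18.8 CPM (-0.54, SE 0.15, adjusted p = 0.0257). For Psmb9 and Psmb8 fl/fl-MI 1 stayed within the sham range and the other 3 MI libraries lay below it, and Psmb10 alone of these inducible proteasome subunits had every MI library below every sham library.

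Of the TAP transporter, Tap2 was at 47.3 and 45.7 CPM in fl/fl-Sham, 50.5 and 44.5 in CKO-Sham, 34.4 and 39.0 in fl/fl-MI, and 25.9 and 25.3 in CKO-MI. It fell by 0.62 (SE 0.09, edgeR adjusted p = 0.00313) without overlap between MI and sham libraries. Tap1 was at 28.4 to 29.0 in the sham libraries, 37.8 and 18.7 in fl/fl-MI, and 12.9 and 13.3 in CKO-MI. Its averaged difference did not pass (-0.58, SE 0.21, adjusted p = 0.0609) and passed without fl/fl-MI 1 and without fl/fl-MI 2. Psmb9 and Tap1 overlap head to head on opposite strands between 34187553 and 34187764 on chromosome 17, and the strand setting of the counting is not given in the sources used here, so reads in that stretch could be counted for either.

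The call of Tap2 held without any single library, whereas those of Psmb8, Psmb9 and Psmb10 were lost when any sham library was left out, that of Psmb8 also without CKO-MI 1 and that of Psmb10 also without CKO-MI 2. Within CKO mice 5 of the 8 machinery genes fell, beside 11.9% of all genes. Psmb9 fell by 1.60 (SE 0.34), Tap1 by 1.12 (SE 0.29), Psmb8 by 1.08 (SE 0.25), Tap2 by 0.89 (SE 0.13) and Psmb10 by 0.77 (SE 0.21), with edgeR adjusted p of 0.00700 to 0.0383. Without CKO-Sham 1 0 of these 5 were called in CKO mice, without CKO-Sham 2 or CKO-MI 1 only Tap2, and without CKO-MI 2, fl/fl-Sham 1 or fl/fl-Sham 2 only Psmb9 and Tap2. Within fl/fl mice 0 of the 8 passed in edgeR, and 1 had an unadjusted p under 0.05. These libraries also differed in composition: mitochondrial genes held 43.1% to 46.4% of counts in sham and 19.9% to 24.2% in MI libraries, and scales that include them moved every gene, raising the median of all genes after MI by 0.41 on log2(FPKM + 1) and 0.92 on log2(TPM + 1) against 0.03 here. On log2(TPM + 1) the machinery genes Psmb8, Psmb9, Psmb10 and Tap2 stood above zero. On log2(FPKM + 1) none of them passed, with limma adjusted p of 0.296 to 0.983. Relative to the median of all genes the 13 members called here kept their side on both scales, Tap2 at -0.46 and -0.42 and Psmb9 at -0.66 and -0.77. Subtracting that median restores a centering near that of the fit that called these members, so this agreement was largely built in.

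The remaining machinery genes did not pass. B2m, the shared light chain of class I, was at 309 and 331 CPM in fl/fl-Sham, 300.2 and 259 in CKO-Sham, 562 and 281 in fl/fl-MI, and 219 and 226 in CKO-MI (0.03, SE 0.21, edgeR adjusted p = 0.909). It was high in fl/fl-MI 1 alone and lowest in both CKO-MI libraries. Tapbp, which bridges TAP and the empty heavy chain, was at 79.9 to 121 CPM over the libraries (0.15, SE 0.11), and the aminopeptidase Erap1 at 31.0 to 41.5 (0.12, SE 0.10). H2-Ke6, a steroid dehydrogenase gene (Hsd17b8) that lies in the complex and carries its name but is no MHC chain, fell from 23.5 to 33.4 CPM in sham libraries to 8.67 to 16.5 in MI libraries (-1.22, SE 0.22, adjusted p = 0.00567).

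The regulators were low. Ciita, below the filter and not tested, was at 1.75 and 2.30 CPM in fl/fl-Sham, 0.65 and 1.36 in CKO-Sham, 10.8 and 1.79 in fl/fl-MI, and 1.52 and 5.51 in CKO-MI. It was highest in fl/fl-MI 1, as the class II genes were, but next highest in CKO-MI 2, where they were not. Nlrc5 was at 13.0 and 15.3, 9.30 and 10.1, 19.7 and 9.83, and 9.09 and 6.28 CPM (-0.14, SE 0.24, edgeR adjusted p = 0.680).

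Between the infarcted groups, the contrast through which the family was noticed, each of the 30 members tested had a lower estimate in CKO-MI than in fl/fl-MI. This is a description. The uniform direction needed all libraries. With a single library left out, the highest estimates were above zero for H2-Ke6 (0.32), H2-T24 (0.27), H2-T10 (0.16) and Psmb10 (0.09). The median log2 difference was -1.55 for class II, -1.14 for classical class I, -0.92 for class I-like genes and -0.68 for machinery, and -0.98 over the 30 members, against -0.01 over all genes tested. In edgeR 0 members passed the adjusted threshold (0.0% of all genes), 23 had an unadjusted p under 0.05 and were lower (5.24%), DESeq2 called 9 lower (0.998%) and limma on log2(FPKM + 1) called 0. At an unadjusted p under 0.05 with at least a 2-fold change there were 14 members, all lower, beside 2.72% of all genes. In 26 of the 30 both CKO-MI libraries lay below both fl/fl-MI libraries, beside 15.5% of all genes.

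A single library carried much of these differences for class II and less for class I. fl/fl-MI 1 was the highest of the 8 libraries for 21 of the 30 members, 7 of 7 class II, 2 of 2 classical class I, 7 of 11 class I-like and 4 of 8 machinery genes, beside 14.3% of all genes tested. Its level over the mean of the other 3 MI libraries had a median of 3.84 for class II genes, from 2.68 to 4.62, of 2.03 for classical class I, 1.77 for class I-like genes and 1.71 for machinery, beside 0.99 over all genes. Without it the class II median between CKO-MI and fl/fl-MI moved from -1.55 to -0.50, and without fl/fl-MI 2 to -2.14. The classical class I median was -0.86 and -1.37, the class I-like median -0.63 and -1.10 and the machinery median -0.38 and -0.85 with the same libraries left out. At the other end, CKO-MI 1 was the lowest of the 4 MI libraries for 23 of the 30 members, beside 21.5% of all genes.

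**Figure D5:**
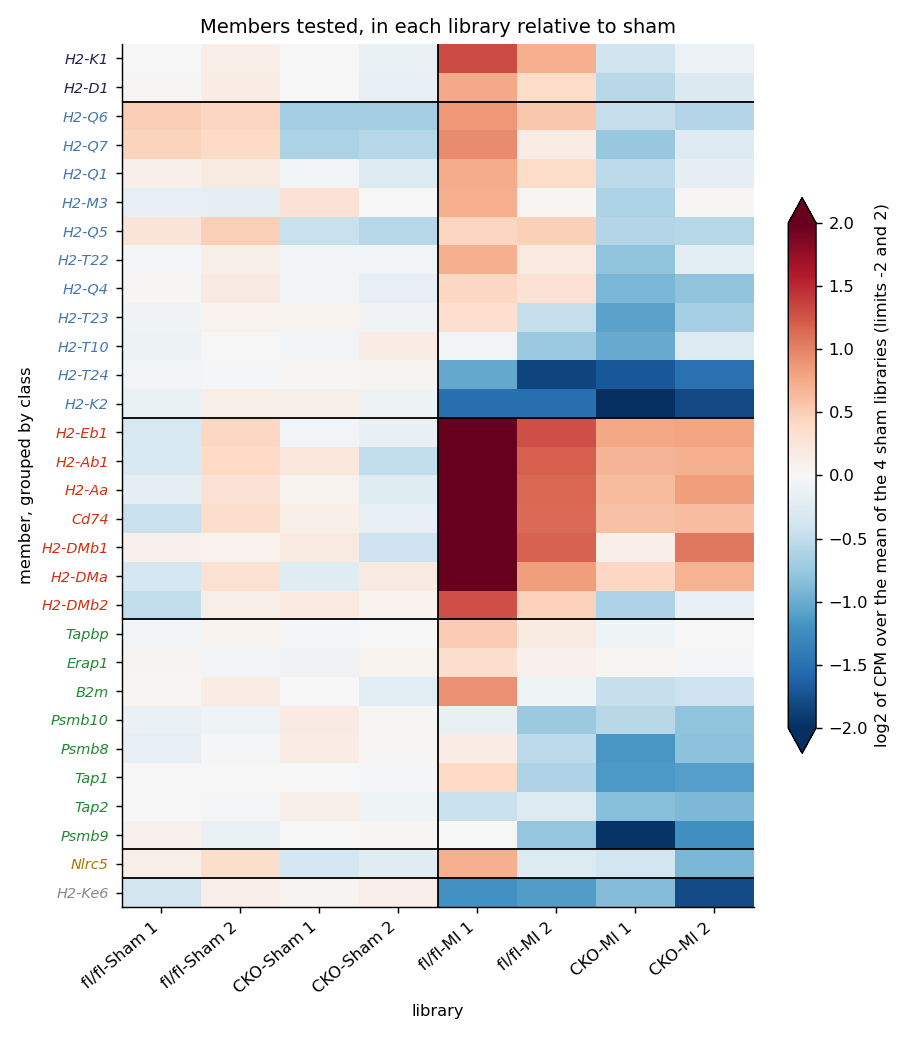
Log2 CPM of the 30 members tested in each of the 8 libraries, shown relative to the mean of the 4 sham libraries of the same gene; rows are genes ordered by class and columns are libraries. The column of fl/fl-MI 1 is the highest for 21 of the 30 genes and the CKO-MI columns are low in class I-like and machinery rows.

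The interaction of genotype and MI asks whether the infarct effect differed between genotypes. In edgeR 0 of 30 members passed (0.0% of all genes), 9 had an unadjusted p under 0.05, all lower (4.94%), DESeq2 called 1 lower (H2-Q4, beside 0.506%) and limma on log2(FPKM + 1) called 0. H2-Q4 had -1.01 (SE 0.19, edgeR adjusted p = 0.560), whereas H2-Q5, H2-Q6 and H2-Q7, which were low in CKO libraries of both operations, had -0.16, -0.09 and -0.08 with SE of 0.26, 0.21 and 0.39. With a single library left out, the interaction ran from -1.09 to -0.94 for H2-Q4 and from -0.28 to -0.05 for H2-Q5. It ran from -0.24 to 0.10 for H2-Q6 and from -0.42 to 0.39 for H2-Q7. In 4 of the 30 both fl/fl-MI libraries lay above both fl/fl-Sham libraries and both CKO-MI below both CKO-Sham libraries, beside 1.93% of all genes.

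Genes around the members in the pathway were taken from fixed lists and read beside all genes tested, of which 22.0% rose and 18.3% fell. Of 13 genes of peptide loading and the constitutive proteasome 6 rose and 5 fell after MI, with a median of 0.13; the chaperones Hspa5 (1.10, SE 0.10, edgeR adjusted p = 0.000731) and Calr (0.92, SE 0.16, adjusted p = 0.00538) rose with the aminopeptidase Lnpep (1.09, SE 0.10, adjusted p = 0.000746). Of 10 genes of class II processing 6 rose and 0 fell, with a median of 0.61. Among them Ctss, the cathepsin that degrades the invariant chain, was at 27.6 to 35.7 CPM in sham libraries, 110 and 62.2 in fl/fl-MI, and 41.4 and 52.9 in CKO-MI (0.97, SE 0.19, adjusted p = 0.00790), without overlap and with fl/fl-MI 1 highest. The endopeptidase Lgmn rose by 0.94 (SE 0.12, adjusted p = 0.00172). Cd83, which stabilizes class II on the surface, had an averaged difference of 0.76 (SE 0.24, adjusted p = 0.0432). It was at 3.43 to 5.32 CPM in sham libraries, 10.5 and 16.4 in fl/fl-MI, and 4.40 and 3.12 in CKO-MI. Only the fl/fl-MI libraries lay above the sham range for this gene.

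Lists of interferon-related genes were read beside the 22.0% of all genes that rose and the 18.3% that fell. Of 22 genes of interferon gamma signaling and MHC transcription 4 rose and 5 fell, with a median of -0.12; the transcription factors Irf7, Irf1 and Irf9 fell by 1.36 (SE 0.10), 1.23 (SE 0.17) and 0.99 (SE 0.15), with edgeR adjusted p of 0.000533, 0.00226 and 0.00307. Ifng itself stayed at 0 to 0.29 CPM. Of 16 interferon-stimulated genes 0 rose and 8 fell, with a median of -0.62, among them Gbp4 (-1.99, SE 0.19), Rsad2 (-1.63, SE 0.13) and Gbp3 (-1.39, SE 0.16). Their summed level was 389 to 458 CPM in sham libraries, and 472, 253, 174 and 185 CPM in fl/fl-MI 1, fl/fl-MI 2, CKO-MI 1 and CKO-MI 2, so the library that was highest in the members was also highest of the MI libraries here. The sum of 6 endothelial markers was 1463 to 1579 CPM in sham and 475 to 744 in MI libraries, with 6 of 6 lower. The part of either in the lower machinery, H2-K2 and H2-T24 levels was not tested.

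Receptors and partners on other cells showed few calls, beside 22.0% of all genes higher and 18.3% lower. Of 9 other MHC-related molecules 6 passed the filter and 1 rose, Mr1, which presents microbial metabolites to MAIT cells (0.62, SE 0.15, edgeR adjusted p = 0.0180). Of 15 receptors of MHC molecules 7 passed the filter, and 0 of these were called in either direction. Of 5 costimulatory genes, Cd80 rose (1.64, SE 0.34, adjusted p = 0.00992) and Cd274, which encodes the inhibitory ligand PD-L1, fell by 1.35 (SE 0.15, adjusted p = 0.00115).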

How the data were processed

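RNA-seq of myocardium was deposited for 8 mouse libraries. The deposited gene table holds read counts and FPKM that the authors computed per gene, and a transcript table holds FPKM; the submitters' processing notes name FastQC and cutadapt 1.9, while the aligner, counter and annotation are not given in the sources used here. Low counts came in steps of about 4, so a fragment may be counted several times. The members and lists were chosen with earlier results of these data known; every member is accounted for, and each member tested is named with values. From each list up to 3 genes were named, those called with the largest change after MI or, with no call, those with the smallest p, with further genes said to be chosen after their values were seen.

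Counts were fitted with edgeR 4.0.16 (R 4.3.3; quasi-likelihood test, TMM normalization, group means, all 8 libraries) for the 14028 genes with a mean of at least 0.5 FPKM, with Benjamini-Hochberg adjustment over all of them and a threshold of 0.05. A call means an adjusted p under that threshold, and standard errors are those of the log2 fold change. CPM are counts scaled to the TMM-adjusted library size. TPM was rescaled from FPKM. DESeq2 1.42.0, limma 3.58.1 on log2(FPKM + 1), log2(FPKM + 0.1) and log2(TPM + 1), other filters, a replicate block and leaving out each library were alternatives, and the crossed pairing was added after seeing the data. Same-numbered libraries of different groups did not deviate together (correlations from -0.17 to 0.06), so the numbers were not taken to pair the samples. Scripts were tested on simulated data. Gene positions on GRCm38 are from the deposited table, and 38 of the 45 members had the same positions in GENCODE M21. Depth of 73821747 to 88117573 counts limits low genes most.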

Additional observations from a re-analysis of the deposited data

Results flagged for a closer look

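For 4 members both fl/fl-MI libraries lay above both fl/fl-Sham libraries while both CKO-MI libraries lay below both CKO-Sham libraries, as in 271 of the 14028 genes tested (1.93%). The interaction of genotype and MI on the log2 scale was -0.82 for H2-D1 (SE 0.27, edgeR unadjusted p = 0.0204, adjusted p = 0.574), -1.01 for H2-Q4 (SE 0.19, unadjusted p = 0.00100, adjusted p = 0.560), -0.86 for H2-T22 (SE 0.33, unadjusted p = 0.0361, adjusted p = 0.574) and -1.74 for H2-DMb2 (SE 0.63, unadjusted p = 0.0281, adjusted p = 0.574). The difference did not pass the adjusted threshold for any of the 4, and it uses the contrast through which the family was noticed.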

How the results depend on the processing

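The library numbers did not pair the samples; with a replicate block the infarct comparison in fl/fl mice had 2 members called in place of 8 (6 with the numbers of CKO-MI crossed), and the averaged comparison 11 in place of 13 (12 crossed). Leaving out each library in turn gave 4 to 17 members called for MI averaged over genotypes, 0 to 13 in fl/fl mice, 0 to 12 in CKO mice, 0 to 7 between the MI groups (3 to 22 at an unadjusted p with 2-fold), 0 to 1 between the sham groups (1 to 3) and 0 to 1 for the interaction; a group left with 1 library was assumed to vary like the others. The class medians of MI averaged ran from 0.92 to 1.67 for class II, 0.09 to 0.35 for classical class I, -0.18 to 0.029 for class I-like genes and -0.66 to -0.39 for machinery, and between the MI groups from -2.14 to -0.495, -1.37 to -0.86, -1.10 to -0.63 and -0.85 to -0.38.

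The median of all genes for MI averaged was 0.41 on log2(FPKM + 1) and 0.92 on log2(TPM + 1). With limma on log2(TPM + 1) 23 members were called for MI averaged (22 higher) and 23 in fl/fl mice, and the medians of MI averaged were 1.36, 0.94, 2.41 and 0.52 for classical class I, class I-like, class II and machinery. On log2(FPKM + 1) they were 0.79, 0.45 and -0.0030 for classical class I, class I-like and machinery, and on log2(FPKM + 0.1) 0.79, 0.53 and -0.012; calls in fl/fl mice were 16 and 17, and in CKO mice 4 and 4. Between the MI groups 7 members passed the unadjusted rule on TPM, 5 on log2(FPKM + 1) and 9 with a mean FPKM of at least 5, with class I-like medians of -0.80, -0.77 and -1.04; that filter also put the class I-like median of MI averaged at -0.20. Between the sham groups 1 member passed the unadjusted rule on TPM and 1 on log2(FPKM + 1). DESeq2 called 9 members between the MI groups, 2 between the sham groups and 1 for the interaction. Fitting only the 4 libraries compared gave 0 calls in fl/fl mice, 14 in CKO mice and 2 between the sham groups.

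Directions reversed on log2(TPM + 1) for MI averaged in Psmb8 (0.49), Tap2 (0.49), Psmb10 (0.56), H2-Q4 (0.87), H2-T22 (1.06), Nlrc5 (0.66) and Psmb9 (0.14), for fl/fl mice in Psmb8 (0.94), Tap2 (0.75), Psmb10 (0.77) and H2-T23 (1.04), and for CKO mice in Erap1 (0.998), Tapbp (1.07), Psmb8 (0.044), Tap2 (0.23), Psmb10 (0.35), H2-Q4 (0.37), Tap1 (0.0098), H2-Q5 (0.89), H2-K1 (0.94) and H2-D1 (0.81). Psmb10 for MI averaged also reversed on log2(FPKM + 1) (0.0051) and log2(FPKM + 0.1) (0.0039). Depth limits H2-DMb2, H2-T10 and the members below the filter, whose levels rest on few fragments.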

Other observations

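The transcript table gives FPKM per annotated transcript, and in fl/fl-MI 1 some members drew on transcripts that other libraries hardly used. For H2-Eb1, transcript ENSMUST00000074557 was at 63.6 FPKM in fl/fl-MI 1 and 0.05 to 1.37 in the other 7 libraries. For H2-Ab1, transcript ENSMUST00000237342 was at 9.08 FPKM in fl/fl-MI 1 and 0 in the other 7. These are values of a transcript estimate with no test.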
